A study of Mus musculus with 18 samples.

Results

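The natural killer (NK) gene complex on mouse chromosome 6 encodes C-type lectin-like receptors that NK cells use to read major histocompatibility complex (MHC) class I molecules and stress ligands on other cells. The 10 receptor genes described here were Klra18, Klri2, Klri1, Klrd1, Klrk1, Klrc1, Klrb1c, Klra17, Klra2 and Klra1, out of 21761 genes in the expression table. They were taken by symbol, and they were put together because Klra18 and Klri2 had already been seen to differ between genotypes in naive B cells, so the values in naive B cells below are a description and carry no test. All 10 had a row in the table, and 8 of the 10 reached the expression filter of 1 FPKM (fragments per kilobase of exon, scaled to library depth) in 2 libraries. Each of those 8 passed through the naive B cell libraries.

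RNA-seq was performed on 5000 sorted cells per library from young adult mice of a mixed B6;129S4 background, with 18 libraries in 6 groups of 3. Every mouse carried loxP-flanked Dnmt3a fl/fl and Dnmt3b fl/fl alleles, which encode the de novo DNA methyltransferases. Dnmt3-deficient mice also carried 1 allele of a Cre that is active in B-lineage cells, and Dnmt3-sufficient controls carried no Cre. Naive B cells (nB; B220+ Fas- GL7-) were sorted from lymph nodes of unimmunized mice. Antigen-specific germinal center B cells (GCB; B220+ Fas+ GL7+ PE+) were likewise taken from lymph nodes. The plasma cells (BMPC; CD138+) were from bone marrow, and both were collected 30 days after immunization with phycoerythrin (PE) in complete Freund's adjuvant. Each GCB library pooled 2 mice.

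NK complex receptors fall into families with distinct ligands and signals. The Ly49 family (Klra genes) binds classical MHC class I, and its set of genes differs between inbred mouse strains. CD94 (Klrd1) pairs with NKG2A (Klrc1) into an inhibitory receptor for Qa-1 (H2-T23), NKG2D (Klrk1) signals through the adaptor Hcst on binding stress ligands of the Raet1 and H60 families, and Klri1 and Klri2 each pair with Klre1. Activating Ly49 receptors signal through Tyrobp (DAP12). These receptors are known from NK cells, subsets of T cells and, for some members, myeloid and plasmacytoid dendritic cells.

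A BMPC library held between 1355231 and 3803197 recovered reads on genes, fewer than any nB (6692516 to 8987922) or GCB library (7644544 to 8903872). Within BMPC, the Dnmt3-deficient libraries were mostly shallower. They held 1632925, 1355231 and 2265945 reads, against 2196198, 3803197 and 3629318 in the Dnmt3-sufficient libraries. A 0 in Dnmt3-deficient BMPC is therefore read at lower depth. Whole-gene levels of Dnmt3a in nB, at 2.35 to 5.18 FPKM in Dnmt3-sufficient and 2.24 to 4.33 FPKM in Dnmt3-deficient libraries, overlapped. Such levels do not test the deletion, since reads from the exons that remain are counted too.

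Of the 10 receptor genes, 9 have a position in the GENCODE vM1 annotation of mm9, the build of the deposited table. Klra18 has no entry in that annotation, and its place was not analysed here. The 9 genes lie on chromosome 6 between 128728503 and 131197380, an interval of 2.47 Mb. From the proximal side they are Klrb1c (128728503 to 128739233), Klrd1 (129541800 to 129548793), Klrk1 (129560341 to 129573882), Klrc1 (129616033 to 129628991), Klri1 (129647236 to 129667150), Klri2 (129679059 to 129690502), Klra17 (129781172 to 129826690), Klra1 (130313936 to 130336892) and Klra2 (131169241 to 131197380). Klrd1 is on the plus strand and the other 8 are on the minus strand.

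The promoter windows of Klrk1, Klrc1 and Klra1 are printed because these are the receptor genes whose nB libraries did not overlap between genotypes and for which RefSeq promoter sequence was held. The windows run from 250 bases before to 50 bases after the annotated start, 5′ to 3′ on the minus strand, with CpG dinucleotides, the sites of the methylation that Dnmt3a and Dnmt3b place, in capitals. They match mm9 exactly at chr6:129573833-129574132, chr6:129628942-129629241 and chr6:130336843-130337142.
Klrk1: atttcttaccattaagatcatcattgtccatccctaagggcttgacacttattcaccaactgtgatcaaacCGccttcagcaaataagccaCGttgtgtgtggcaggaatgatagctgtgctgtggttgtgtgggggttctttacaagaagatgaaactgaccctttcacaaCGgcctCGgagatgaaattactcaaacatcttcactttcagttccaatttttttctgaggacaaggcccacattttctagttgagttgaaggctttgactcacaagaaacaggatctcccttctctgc
Klrc1: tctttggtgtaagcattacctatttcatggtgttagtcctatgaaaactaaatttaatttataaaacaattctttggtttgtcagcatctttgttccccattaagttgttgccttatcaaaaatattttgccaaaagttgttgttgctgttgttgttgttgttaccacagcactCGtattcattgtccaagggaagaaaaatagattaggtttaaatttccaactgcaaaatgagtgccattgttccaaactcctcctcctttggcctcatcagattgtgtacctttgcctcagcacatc
Klra1: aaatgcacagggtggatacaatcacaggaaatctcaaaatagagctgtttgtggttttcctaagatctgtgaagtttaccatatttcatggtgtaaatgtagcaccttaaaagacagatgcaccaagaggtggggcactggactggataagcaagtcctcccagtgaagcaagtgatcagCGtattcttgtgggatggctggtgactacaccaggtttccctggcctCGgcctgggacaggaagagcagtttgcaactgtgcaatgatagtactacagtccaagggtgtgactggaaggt

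The windows held 4, 1 and 2 CpG dinucleotides for Klrk1, Klrc1 and Klra1, against a median of 7 over 32851 promoter windows of the same length. Windows with as few CpG or fewer made up 38.04%, 14.12% and 23.31% of all windows, respectively. Promoter sequence was held for 7 of the 10 receptor genes, and Klra18, Klri2 and Klrd1 were not among them. On either strand, the Runx core TGTGGT was found in the windows of Klrk1, Klrc1, Klrb1c and Klra1 and in 16.76% of all windows. The Ets core CAGGAA was found in those of Klrk1, Klrb1c, Klra17, Klra2 and Klra1 and in 30.55% of all windows. The T-box core AGGTGT was in none of the 7 windows and in 13.74% of all windows.

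The first question was whether the neighbours of Klra18 and Klri2 differed between genotypes along with them in nB. Of the 10 receptor genes, 5 had Dnmt3-sufficient and Dnmt3-deficient nB libraries that did not overlap, of which Klra18, Klri2, Klrk1 and Klrc1 were higher and Klra1 was lower in Dnmt3-deficient nB. Over all 11522 genes tested, 8.84% had no overlap in nB, with 4.66% higher and 4.17% lower in Dnmt3-deficient libraries. Since Klra18 and Klri2 were chosen on this contrast, nothing is read from that count. The other 5 receptor genes overlapped or were not detected.

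**Figure D1:**
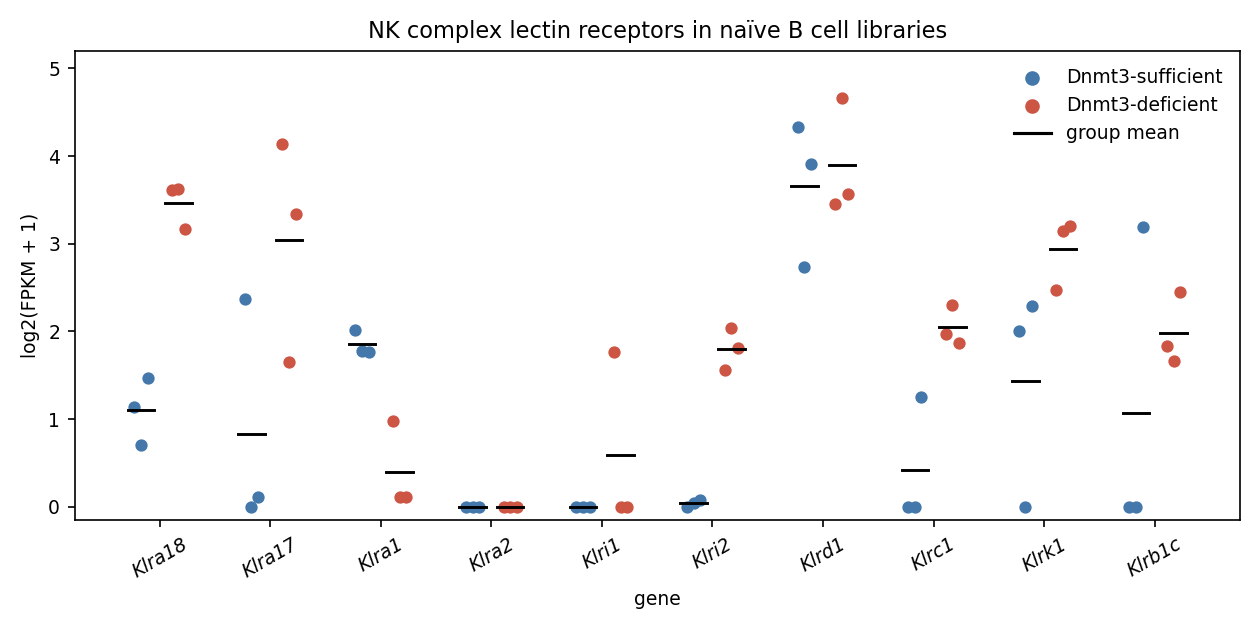
Level of the 10 receptor genes in each nB library as log2(FPKM + 1), with 3 Dnmt3-sufficient libraries (blue) and 3 Dnmt3-deficient libraries (red) per gene and the group mean as a black bar. Klra18, Klri2, Klrc1 and Klrk1 lie higher and Klra1 lower in all 3 Dnmt3-deficient libraries, whereas Klra17, Klrd1, Klri1 and Klrb1c overlap and Klra2 is at 0.

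Among the Ly49 receptors, Klra18 encodes Ly49R, an activating receptor described in 129 mice. Klra18 measured 1.20, 0.627 and 1.78 FPKM in the 3 Dnmt3-sufficient nB libraries (10, 6 and 20 reads) and 11.2, 11.3 and 7.95 FPKM in the 3 Dnmt3-deficient nB libraries (112, 99 and 76 reads). The lowest Dnmt3-deficient library was above the highest Dnmt3-sufficient library, and the means differed 8.45-fold. On the log2(FPKM + 1) scale the difference was 2.36. Klra18 had no reads in any of the 12 GCB and BMPC libraries.

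Klra1 encodes Ly49A, an inhibitory receptor for H-2D. Klra1 measured 3.05, 2.43 and 2.40 FPKM in Dnmt3-sufficient nB and 0.976, 0.0855 and 0.0785 FPKM in Dnmt3-deficient nB. All 3 Dnmt3-deficient libraries were lower, 2 of them with 1 read each, and the mean was 6.91-fold lower, opposite in direction to Klra18. The log2 difference was -1.45. The strain origin of the NK complex in each mouse of this mixed B6;129S4 background was not analysed here, so for Klra18, known from 129 mice, and Klra1, known from B6 mice, strain origin and Dnmt3 genotype cannot be told apart.

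Klra17 encodes Ly49Q, known from plasmacytoid dendritic cells and myeloid cells. Klra17 measured 4.15, 0 and 0.0835 FPKM in Dnmt3-sufficient nB and 16.6, 2.14 and 9.13 FPKM in Dnmt3-deficient nB. The mean was 6.59-fold higher in Dnmt3-deficient nB but 1 Dnmt3-sufficient library lay above the lowest Dnmt3-deficient library, so the groups overlapped. Klra2, encoding the myeloid receptor Ly49B, had no reads in any of the 18 libraries. The 3 Ly49 members with reads in nB thus did not share a direction or a separation between genotypes.

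The table also held other Klra genes that were not used to choose the receptors. Klra7, encoding the inhibitory receptor Ly49G, measured 0.914, 0.533 and 0.227 FPKM in Dnmt3-sufficient nB and 4.17, 0.678 and 5.69 FPKM in Dnmt3-deficient nB. Its log2 difference was 1.34, with overlapping groups. Klra7 reached the expression filter only through Dnmt3-deficient nB libraries, so this difference is a description with no test. Klra23 measured 4.43, 3.74 and 1.18 FPKM in Dnmt3-sufficient nB against 2.12, 4.53 and 9.56 FPKM in Dnmt3-deficient nB, and these also overlapped. Klra7 and Klra23 were singled out after their values were seen, as the Klra genes outside the 10 with the highest means over the 6 nB libraries. Klra4, which the RefSeq table gives with ly49r<129> as another of its names, had no row in the expression table. Without a GENCODE vM1 transcript of Klra18, how far its reads can be told from those of other Klra genes was not analysed here.

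Klri2, a partner of Klre1 in an activating receptor, measured 0, 0.0334 and 0.0569 FPKM in Dnmt3-sufficient nB, or 0, 1 and 2 reads. In Dnmt3-deficient nB it measured 1.95, 3.10 and 2.51 FPKM, or 61, 85 and 75 reads. The Dnmt3-sufficient libraries were near the limit of detection and the Dnmt3-deficient libraries were all above them. Summed reads per read on genes differed 75.9-fold, with an exact 95% counting interval of 25.6 to 370.7 that gives the precision of the counts and is no test of a gene chosen on this contrast. The log2(FPKM + 1) difference was 1.76.

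Klri1, the inhibitory counterpart of Klri2, lies 31.8 kb from Klri2 by the lower coordinate of each gene. It had reads in 1 library out of 18, at 2.39 FPKM (16 reads) in Dnmt3-deficient nB replicate 1, and was at 0 in the other two Dnmt3-deficient nB libraries. Klri1 therefore did not follow Klri2 across the Dnmt3-deficient libraries. Klre1, with which both pair, measured 0, 2.99 and 1.80 FPKM in Dnmt3-sufficient nB and 0.477, 8.82 and 5.23 FPKM in Dnmt3-deficient nB. Those groups overlapped, with a log2 difference of 1.01 and an adjusted p of 1 (limma, Benjamini-Hochberg, n = 3 per group).

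Of the CD94 and NKG2 receptors, Klrc1 measured 0, 0 and 1.39 FPKM in Dnmt3-sufficient nB and 2.93, 3.94 and 2.66 FPKM in Dnmt3-deficient nB. The mean was 6.85-fold higher and the groups did not overlap, although 2 of 3 Dnmt3-sufficient libraries had no read. In the GENCODE vM1 transcripts, 40.3% of the 50-base windows of Klrc1 were identical to Klrc2 or Klrc3, so reads from those windows could not be assigned to 1 gene by sequence, and its level is uncertain to that extent. Klrc2 was at 0, 0 and 0.752 FPKM in Dnmt3-sufficient nB and at 0.221, 0 and 0.115 FPKM in Dnmt3-deficient nB, so it did not show the same separation. The log2 difference of Klrc1 was 1.63.

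Klrd1, the partner of Klrc1, measured 19.1, 5.68 and 14.1 FPKM in Dnmt3-sufficient nB and 9.94, 24.2 and 10.9 FPKM in Dnmt3-deficient nB. It had the highest mean of the 10 receptor genes in both genotypes, and the groups overlapped with a 1.16-fold difference of means. Leaving out Dnmt3-sufficient replicate 2 turned its log2 difference from 0.23 to -0.23, and leaving out Dnmt3-deficient replicate 2 turned it to -0.15. Klrd1, unlike Klrc1, thus gave no stable direction between the genotypes in nB.

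Klrk1 measured 3.02, 0 and 3.88 FPKM in Dnmt3-sufficient nB and 4.55, 7.86 and 8.21 FPKM in Dnmt3-deficient nB. The means differed 2.99-fold and the groups did not overlap, with 4.55 FPKM the lowest Dnmt3-deficient and 3.88 FPKM the highest Dnmt3-sufficient value. Without the Dnmt3-sufficient library at 0 the log2 difference fell from 1.51 to 0.79. Klrb1c, which encodes the NK1.1 antigen, measured 0, 0 and 8.16 FPKM in Dnmt3-sufficient nB and 2.58, 2.17 and 4.46 FPKM in Dnmt3-deficient nB. The groups overlapped because a single Dnmt3-sufficient library, replicate 3, was the highest of the 6, and the log2 difference was 0.92 with that library and 1.98 without it.

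Across the interval from Klrb1c to Klra2 the annotation holds 63 genes, of which 39 were in the table and 30 were not among the receptors described. None of these 30 had non-overlapping nB groups, and 14 of the 30 reached the expression filter, a count too small to set apart from the 8.84% without overlap over all genes tested. Klrk1, Klrc1 and Klri2 lie within 118.7 kb on that measure, with Klrc3, Klrc2, Mir680-1 and Klri1 between them, and those 4 neighbours did not separate by genotype. None of the 4 reached the expression filter, so genes this close to 0 could hardly have separated. Klre1 and Klrd1, 151.1 kb and 137.3 kb from Klri2 on the same side, overlapped as well.

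**Figure D2:**
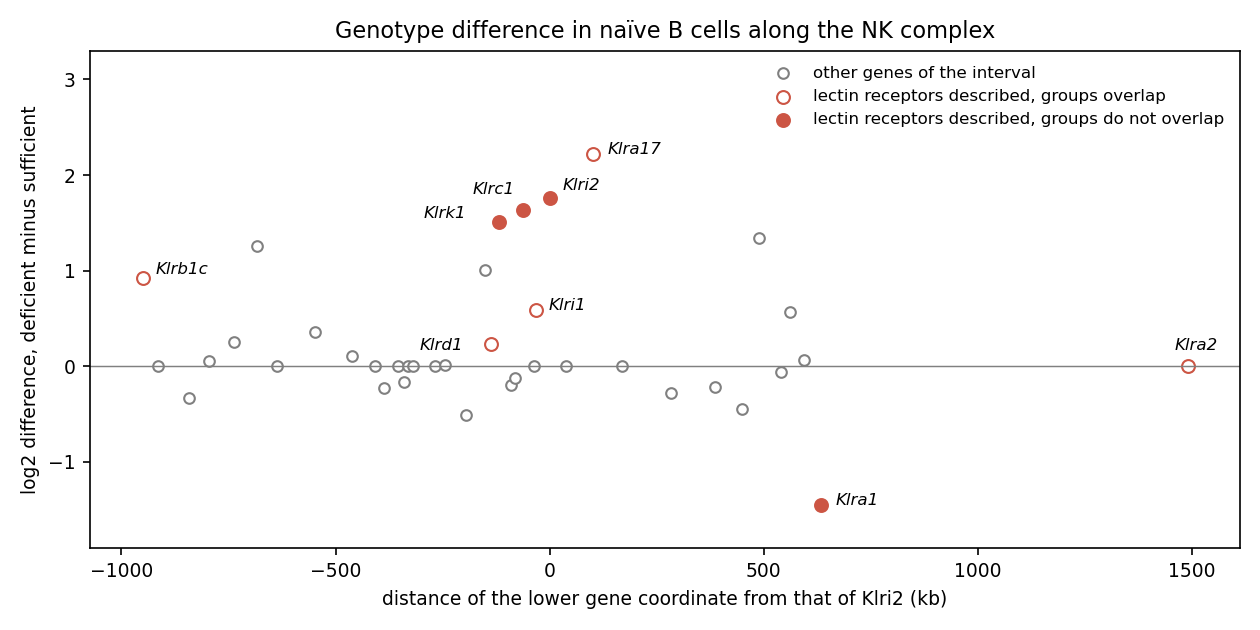
Difference of the mean log2(FPKM + 1) between Dnmt3-deficient and Dnmt3-sufficient nB for the 39 genes of the interval, against the distance of its lower coordinate from that of Klri2 in kb. Filled red points are receptors without overlap between the 3 libraries per genotype (Klrk1, Klrc1 and Klri2 higher, Klra1 lower), open red points are receptors with overlap or at 0, and grey points are the 30 other genes, none of which separated.

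Of a list of other lectin-like genes of the complex, 35 were in the table and 13 passed the filter, and 0 of the 13 were called between genotypes in nB, GCB or BMPC, by limma at an adjusted p of 0.05 and a log2 change of at least 1. Of all genes, 0.0521% were called in nB, 0% in GCB and 3.98% in BMPC, so a count of 0 among 13 cannot be set apart from these shares. The largest differences of the 13 in BMPC were lower for Klrb1 (log2 -2.72, adjusted p = 0.0802, limma) and Klrb1f (-2.70, adjusted p = 0.1, limma). Clec2g went the other way (2.06, adjusted p = 0.177, limma). At the level of single libraries, 1 of the 35 did not overlap in nB (8.84% over all genes tested). This was Klrb1a, which measured 0, 0 and 0.0873 FPKM in Dnmt3-sufficient and 0.0982, 1.23 and 0.308 FPKM in Dnmt3-deficient libraries. The median log2 difference of the 13 genes in nB was 0.17, against 0.00 over all genes tested.

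Of the 11 signalling partners in the list, 0 were called in nB. Tyrobp measured 150, 50.3 and 342 FPKM in Dnmt3-sufficient nB and 127, 178 and 116 FPKM in Dnmt3-deficient nB. Hcst measured 37.2, 33.7 and 27.9 FPKM against 52.7, 32.9 and 23.1 FPKM. Their log2 differences were 0.00 and 0.06, both with an adjusted p of 1 (limma), and the adaptors did not move with the receptors. Of 11 ligand genes in the table, 9 were tested and 0 were called in any cell type (0.0521% of all genes called in nB, 0% in GCB and 3.98% in BMPC). Their summed FPKM was higher without overlap in Dnmt3-deficient libraries of nB (2908 to 3301 against 3405 to 3600) and BMPC (797 to 1362 against 1394 to 1928). Single ligands stayed below the threshold, with H2-T23, the ligand of CD94 and NKG2A, at a log2 difference of 0.23 in nB (adjusted p = 1, limma).

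All 14 NK cell markers in the table had reads in nB libraries. Their summed FPKM was 124 ± 37.2 (SD, n = 3; 101 to 167) in Dnmt3-sufficient nB and 221 ± 41.4 (SD, n = 3; 184 to 266) in Dnmt3-deficient nB, a 1.78-fold difference of means without overlap. None of the 13 tested markers was called in nB, and their median log2 difference was 0.76. Gzma, Prf1, Ccl5 and Il2rb were higher without overlap, Tbx21 was lower without overlap, and the other 9 overlapped, where 4.66% of all genes were higher and 4.17% lower without overlap. Prf1, which encodes perforin, measured 0, 3.14 and 2.98 FPKM in Dnmt3-sufficient and 10.6, 8.10 and 7.98 FPKM in Dnmt3-deficient nB. Ncr1, the receptor that defines NK cells, measured 0, 5.52 and 7.08 FPKM against 19.3, 5.92 and 19.4 FPKM. The part of NK cells in the receptor values was not tested, and in bulk libraries more cells of a type and more RNA per cell cannot be told apart.

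Expressed as a share of the summed NK cell marker FPKM, Klra18 was 0.621 to 1.15% in Dnmt3-sufficient nB and 2.99 to 6.09% in Dnmt3-deficient nB. Klri2 was 0 to 0.0340% and 0.943 to 1.44%, and Klrc1 was 0 to 0.833% and 1.00 to 1.84%, so that these 3 genes kept separate groups on this scale. Klra18 and Klri2 were chosen on their difference in these same libraries, so their separation here is a description with no test. Klra1 kept separate groups in the other direction, at 1.44 to 2.92% and 0.0295 to 0.530%. Klrk1, at 0 to 2.90% and 2.47 to 3.67%, overlapped once set against NK cell markers, and Klrd1 overlapped at 5.62 to 18.3% and 4.09 to 11.3%. Klrb1c (0 to 4.88% and 1.01 to 1.68%) and Klra17 (0 to 3.98% and 0.998 to 9.04%) overlapped as well.

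**Figure D3:**
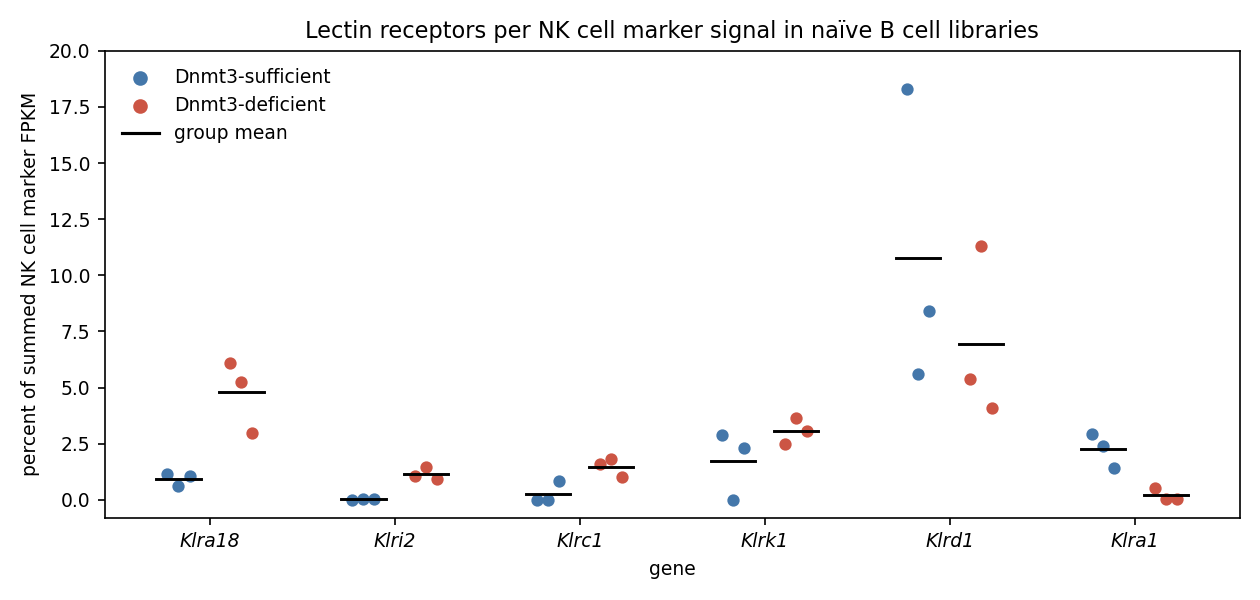
FPKM of 6 receptor genes as a percent of the summed FPKM of 14 NK cell markers in the same nB library, for 3 Dnmt3-sufficient (blue) and 3 Dnmt3-deficient (red) libraries with group means as black bars. Klra18, Klri2 and Klrc1 stay higher and Klra1 stays lower in Dnmt3-deficient libraries, while Klrk1 and Klrd1 overlap.

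Erythroid markers also moved with genotype in nB, with summed levels of 46.6 to 56.3 FPKM in Dnmt3-sufficient and 88.3 to 329 FPKM in Dnmt3-deficient libraries, 2 of 6 markers called, Hba-a2 (adjusted p = 0.0228) and Hbb-bs (adjusted p = 0.0286, limma), and their part in the receptor values was not tested. Sums of 4 other marker lists overlapped between the genotypes. Summed plasmacytoid dendritic cell markers were 145 to 446 FPKM in Dnmt3-sufficient and 199 to 361 FPKM in Dnmt3-deficient nB. Summed T cell markers were 36.1 to 126 and 41.4 to 103 FPKM, and macrophage and monocyte markers 1.70 to 74.0 and 20.3 to 47.5 FPKM. The sum of 6 B cell markers was 6715 to 7065 FPKM in Dnmt3-sufficient and 6367 to 7357 FPKM in Dnmt3-deficient nB. The study's methods name stains for CD11b, CD11c, CD90.2 and Ly6-G as a means to take out autofluorescent cells, and nB were gated as B220+. Whether NK cells or plasmacytoid dendritic cells passed the sort was not tested.

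Over the 18 libraries, the genes whose log2(FPKM + 1) values were most like those of Klra18 by Pearson r were Ccl8 (0.945), Gad1 (0.929), Eid3 (0.924), Arl10 (0.920) and Cd4 (0.915). For Klri2 they were BC049352 (0.955), Ccl8 (0.946), 4930581F22Rik (0.925), Eid3 (0.919) and Gad1 (0.907). These correlations describe shared libraries, are led by the nB libraries and carry no test. Ccl8 and Eid3, each with no read in 2 Dnmt3-sufficient nB libraries, were on both lists, as was Gad1.

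The second question was whether any receptor differed between genotypes after activation. In GCB, Klrb1c was the only one of the 10 with a read, at 0, 1 and 0 reads in the Dnmt3-sufficient libraries and 0, 16 and 9 reads in the Dnmt3-deficient libraries (0, 0.0379 and 0 FPKM against 0, 0.648 and 0.376 FPKM). The ratio of summed reads was 24.8, with an exact 95% counting interval of 4.05 to 1017, but 1 Dnmt3-deficient library had none and the groups overlapped. The log2 difference was 0.38 with an adjusted p of 1 (limma). No receptor was called, nor was any gene over the whole table (0%), where 124 genes had an unadjusted p under 0.05, and 10.6% of genes had no overlap in GCB. The summed NK cell markers were 2.35 to 10.9 FPKM in Dnmt3-sufficient and 1.56 to 7.39 FPKM in Dnmt3-deficient GCB, the lowest of the 3 cell types.

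In BMPC, Klrd1 and Klrk1 had reads and the other 8 receptor genes had none. Klrd1 measured 10.2, 7.18 and 13.0 FPKM in the Dnmt3-sufficient BMPC libraries (18, 22 and 38 reads) and 0 in all 3 Dnmt3-deficient libraries. In the Dnmt3-deficient libraries 3 reads would be 2.28, 2.75 and 1.64 FPKM, so that Klrd1 was at least 4.55-fold lower. The log2 difference was -3.44 (SE 0.462, adjusted p = 0.000394, limma), one of the 3.98% of genes called in BMPC (2.65% lower in Dnmt3-deficient). That call took the spread from all 18 libraries, and a fit to the 6 BMPC libraries alone gave the same difference with an adjusted p of 0.569 and called no gene of the table. The lowest Dnmt3-sufficient library was above the floor of every Dnmt3-deficient library, and 10.3% of all genes had no overlap in BMPC (7.31% lower). Of the 30 other genes of the interval, 1 was also lower without overlap in BMPC, Gabarapl1 (mean 11.4 FPKM in Dnmt3-sufficient and 0.691 FPKM in Dnmt3-deficient libraries).

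Klrk1 was variable between mice in BMPC, at 9.48, 0 and 0 FPKM in Dnmt3-sufficient and 0, 0 and 13.1 FPKM in Dnmt3-deficient libraries. A single library per genotype held all its reads, 71 and 101. The log2 difference was 0.14 (SE 0.96, adjusted p = 1, limma), and leaving out 1 library at a time moved it between -1.13 and 1.27. Klrd1 and Klrk1 were therefore present in the same library only in Dnmt3-sufficient replicate 1.

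Prf1, which NK cells and cytotoxic T cells share, was listed at 0 in the same Dnmt3-deficient BMPC libraries as Klrd1. It measured 14.7, 25.8 and 20.8 FPKM in Dnmt3-sufficient and 0 in all 3 Dnmt3-deficient BMPC libraries, with a log2 difference of -4.39 (adjusted p = 4.64e-05, limma; 0.432 in the fit to BMPC alone). Of the 13 NK cell markers tested, Prf1 was the only one called, against 3.98% of all genes. Summed NK cell markers were 103 to 177 FPKM in Dnmt3-sufficient and 26.3 to 79.5 FPKM in Dnmt3-deficient BMPC and did not overlap. Of the 14 markers, 7 had reads in BMPC (Nkg7, Prf1, Il2rb, Ccl5, Txk, Gzma and Xcl1). The other 7 were at 0 in all 6 BMPC libraries (Ncr1, Gzmb, Eomes, Tbx21, Itga2, Fasl and Cd244). Nkg7, a cytotoxic granule protein gene, measured 86.2, 60.5 and 137 FPKM in Dnmt3-sufficient and 38.4, 26.3 and 78.7 FPKM in Dnmt3-deficient BMPC, which overlapped. Gzma and Xcl1 had reads only in Dnmt3-deficient replicate 1, at 9.76 and 13.4 FPKM. Summed T cell markers were 79.4 to 207 FPKM in Dnmt3-sufficient and 182 to 274 FPKM in Dnmt3-deficient BMPC. Sums that were higher without overlap in Dnmt3-deficient BMPC were those of plasma cell markers (18743 to 29028 against 33433 to 50988 FPKM), plasmacytoid dendritic cell markers (1194 to 1680 against 1779 to 2894 FPKM), macrophage and monocyte markers (60.1 to 90.3 against 98.4 to 227 FPKM) and 6 B cell markers (1172 to 1620 against 1703 to 1809 FPKM). Single genes made up most of the first 2 sums, so these are not shifts of whole lists. They were Jchain (16189 to 25612 against 29771 to 46609 FPKM) and Ly6c2 (976 to 1516 against 1608 to 2678 FPKM). The plasma cell marker Irf4 was lower without overlap (37.3 to 55.2 against 0.315 to 27.9 FPKM). None of the tested plasma cell, plasmacytoid dendritic cell or macrophage and monocyte markers was called. The part of these cells in the Klrd1 difference was not tested.

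Of the signalling partners, Vav1, a guanine nucleotide exchange factor downstream of activating receptors, was the one of 11 called in BMPC, where 3.98% of all genes were called and 2.65% were lower. Vav1 measured 12.8, 17.3 and 6.74 FPKM in Dnmt3-sufficient and 8.50, 0.488 and 0.194 FPKM in Dnmt3-deficient BMPC. The groups overlapped by 1 library, and the log2 difference was -2.29 (adjusted p = 0.034, limma). The call was lost when Dnmt3-sufficient replicate 1 (adjusted p = 0.0576) or 2 (0.0772), or Dnmt3-deficient replicate 2 (0.0852) or 3 (0.0838), was left out. Tyrobp measured 132, 124 and 173 FPKM in Dnmt3-sufficient and 0, 44.3 and 69.4 FPKM in Dnmt3-deficient BMPC, with a log2 difference of -3.27 (adjusted p = 0.105, limma). Hcst measured 61.8, 14.9 and 53.6 FPKM against 47.1, 0 and 18 FPKM (log2 difference -1.97, adjusted p = 0.312, limma).

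**Figure D4:**
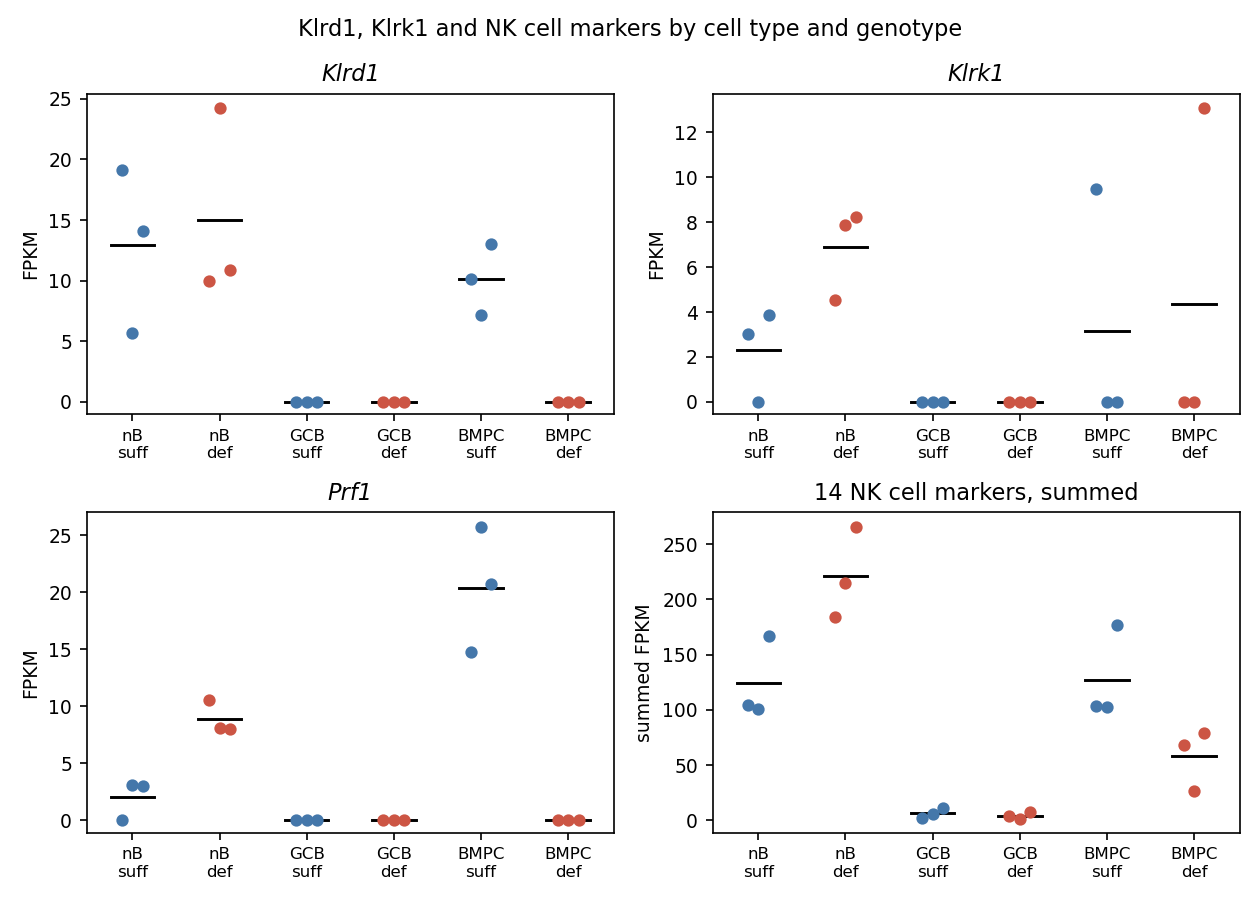
FPKM of Klrd1, Klrk1 and Prf1 and the summed FPKM of 14 NK cell markers in each of 18 libraries, by cell type (nB, GCB, BMPC) and genotype (blue, Dnmt3-sufficient; red, Dnmt3-deficient), with group means as black bars. Klrd1 and Prf1 are at 0 in all 3 Dnmt3-deficient BMPC libraries and above 0 in all 3 Dnmt3-sufficient ones, and Klrd1 and Klrk1 are at 0 in all GCB libraries.

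The third question was how the receptors varied between cell types. In Dnmt3-sufficient mice, 8 of the 10 receptor genes had reads in nB (847 reads in all), against 1 in GCB (1 read) and 2 in BMPC (149 reads). In Dnmt3-deficient mice 9 had reads in nB (1967 reads), 1 in GCB (25 reads) and 1 in BMPC (101 reads). These totals are not scaled to depth and are not levels. All reads on genes came to 23330347 in nB, 25012658 in GCB and 9628713 in BMPC of Dnmt3-sufficient mice. In Dnmt3-deficient mice they came to 22651943 in nB, 25245181 in GCB and 5254101 in BMPC. In both genotypes nB libraries held the most receptor genes with reads and GCB libraries the fewest receptor reads. Klra18 and Klri2 were chosen on nB, and each receptor that reached the filter did so through nB. Nothing is therefore read from the lead of nB. Over all genes tested, 7.73 to 10.9% had no read in an nB library, 5.9 to 10.8% in a GCB library and 26 to 40.1% in a BMPC library.

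Klra18 and Klri2 were left out of the tests that use nB, since nB libraries chose them. From nB to GCB in Dnmt3-sufficient mice, Klrd1 fell by 3.66 on the log2 scale (adjusted p = 3.39e-05, limma), where 14.2% of all genes were called and 6.93% were lower. Klra1 was at 0 in all GCB and BMPC libraries and passed the expression filter only through the Dnmt3-sufficient nB libraries, so its log2 difference of -1.85 from nB to GCB, and of -1.85 from nB to BMPC, is a description with no test. From nB to BMPC, 37.3% of all genes were called and 27.6% were lower. Klrd1 did not differ beyond its spread between BMPC and nB (log2 difference -0.22, adjusted p = 0.743, limma). Klrk1 was not called from nB to GCB (log2 difference -1.43, adjusted p = 0.383, limma) or from nB to BMPC (-0.30, adjusted p = 0.841, limma). Klrc1, Klrb1c and Klra17 were above 1 FPKM only in nB libraries, so for them too these comparisons are a description with no test.

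BMPC against GCB used no library that chose the receptors. Klrd1 was higher in Dnmt3-sufficient BMPC than in Dnmt3-sufficient GCB, by 3.44 on the log2 scale (adjusted p = 3.64e-05, limma), where 27.6% of genes were called and 6.67% were higher. In Dnmt3-deficient mice no receptor was called, with Klrk1 at a log2 difference of 1.27 (adjusted p = 0.326, limma), where 32.3% of genes were called. The interaction term for Klrd1, the genotype effect in BMPC minus that in GCB, was -3.44 (SE 0.653, adjusted p = 0.022, limma), among 0.425% of genes called. Since Klrd1 was at 0 in all 6 GCB libraries, this is the BMPC difference again and does not show whether the effect differs where the gene is expressed. Leaving out any 1 of the 6 GCB libraries took the adjusted p to between 0.0695 and 0.0759. The genotype effects in nB were not set against those in the other cell types, because nB chose the receptors.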

How the data were processed

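The deposited table gives FPKM per gene and library; per the study's methods the authors mapped 50-base read pairs to mm9 with TopHat, set to report 1 alignment per read and allow 2 mismatches, and counted reads that overlapped the exons of a single UCSC KnownGene. Submitters' processing notes name Picard, R 3.2.2 and edgeR 3.12.1. Columns of the authors' comparisons (fold changes, p-values and adjusted p-values) were not used. Reads were recovered from FPKM and exon length and came out whole for 100% of values (tolerance 0.01), which gave the depths.

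Genes above 1 FPKM in at least 2 libraries (11522) were tested with limma 3.58.1 in R 4.3.3 on log2(FPKM + 1), a pseudocount of 1, with 1 mean per group over 18 libraries and a trended prior, two-sided, with Benjamini-Hochberg adjustment. Fold changes on this scale understate changes of low genes. The floor is 3 reads, and intervals cover counting error only. The test was run on simulated data, where more of its calls were false than the nominal share, so its adjusted p-values are liberal. The receptors and gene lists were chosen with earlier results of these data known. Named outside the 10 were other complex genes, partners and ligands called between genotypes, Klre1, Tyrobp and Hcst, and the 5 genes most like Klra18 and Klri2. Replicate numbers of nB and BMPC follow the order of the records. Libraries are separate mice or pools. Same-numbered GCB libraries correlated at 0.0257, -8.06e-05 and -0.0171, so the numbers were not taken as pairs. Positions are from GENCODE vM1 and promoters from RefSeq (GRCm38.p6). A further check of the genotype labels is not reported here.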

Additional observations from a re-analysis of the deposited data

Results flagged for a closer look

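Klrd1 passed the threshold for the interaction term, the genotype effect in BMPC minus that in GCB, at -3.44 on the log2 scale (adjusted p = 0.022, limma). Klrd1 was at 0 in all 6 GCB libraries, so the value repeats the BMPC difference. The call was lost with a replicate block for the GCB libraries (adjusted p = 0.0751), with a quality weight per library (0.262) and on leaving out any 1 GCB library (0.0695 to 0.0759). Prf1, the perforin gene among the NK cell markers, gave -4.41 for the same term (adjusted p = 0.00413, limma), and it too was at or near 0 in all GCB libraries. The Prf1 call was lost with a quality weight per library (adjusted p = 0.119). Groups of 3 libraries were too small for a test of single outlying libraries.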

How the results depend on the processing

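Over the alternatives planned, 101 counts of called or separated receptors stayed within 1.5 times the reported count and 14 did not. In BMPC, the count of 1 receptor (Klrd1) called between genotypes became 0 in a fit to only the BMPC libraries, which called 0 genes of the table, and 0 with a quality weight per library, which called 18 against 459 genes. The interaction count of 1 became 0 with a quality weight per library and with a replicate block for the GCB libraries (adjusted p = 0.0751), and ranged from 0 to 1 when libraries were left out in turn; the block changed no other count of receptors. Requiring FPKM above 3 in at least 3 libraries removed members from the test and took the separated receptors in nB from 5 to 2. Taking out Klra1 lowered the count past the threshold from nB to GCB from 2 to 1. From nB to BMPC the count went from 1 to 0 in the same way. Klra1 had passed the filter only through nB, so its part in these counts is a description with no test. With voom on recovered reads, 4 receptors at 0 in both groups (Klra1, Klrd1, Klri2 and Klra18) were called between Dnmt3-deficient BMPC and GCB, where depth alone sets the value of a gene without reads. Leaving out libraries in turn gave 5 to 6 separated receptors in nB. Signs turned for Klrd1 in nB (-0.23 without Dnmt3-sufficient replicate 2 and -0.15 without Dnmt3-deficient replicate 2, with up to 0.57 otherwise). They also turned for Klrk1 in BMPC and in the interaction (-0.085 with weights, -0.42 without Dnmt3-sufficient replicate 2 or 3, -1.13 without Dnmt3-deficient replicate 3, with up to 1.27 otherwise), and for Vav1 in GCB (from -0.24 to 0.13 on leaving out 1 library, with 0.13 without Dnmt3-deficient replicate 2), none of which was called. Apart from the constructions named, the cause was not tested. BMPC depth limits what a listed 0 shows there.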
